A study of Mus musculus with 8 samples.

Results

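Splicing factors of the SR and hnRNP families, with the U2 snRNP, Prpf and tissue-restricted regulators of splicing, were followed in mouse kidney cells in which Wt1 was knocked down. A probe set was taken as a member when its single annotated gene symbol began with Srsf, Hnrnp, Sf3a, Sf3b, Prpf, Rbfox, Celf or Mbnl and a number or letter of the family, or was Esrp1, Esrp2, Srpk1, Srpk2 or a Ptbp gene. The rule found 212 of 45037 probe sets, which stand for 69 of 18193 named genes. The rule uses symbols and no measured value. The cells were LB-22, an immortalized line from mouse embryonic kidney, with 4 arrays from cells given Wt1 siRNA and 4 arrays from cells given a scrambled control siRNA, each at 25 pmol for 6 h, and total RNA was taken at 48 h. Both groups had been expanded at 33 °C with interferon gamma and were moved to 37 °C without it at transfection, so neither group shows the cells before that change. One siRNA label is given for each group, so an effect of the Wt1 siRNA sequence itself cannot be told apart from loss of Wt1. The labels do not state separate cultures, and the p-values therefore describe only how far these arrays scatter, which may be technical.

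Pre-mRNA splicing removes introns in the spliceosome, which is built from small nuclear ribonucleoproteins (snRNPs). SR proteins bind exons through RNA recognition motifs and recruit the early snRNPs through domains rich in arginine and serine, which SR protein kinases phosphorylate. The heterogeneous nuclear ribonucleoproteins (hnRNPs) coat nascent transcripts and often oppose the SR proteins at alternative exons. The SF3A and SF3B complexes belong to the U2 snRNP at the branch point, and several Prpf proteins belong to the U4/U6.U5 tri-snRNP. Rbfox, Celf, Mbnl, Ptbp and Esrp proteins set tissue-specific exon choice. WT1, a zinc finger protein needed for kidney development, is made with or without the short KTS insert, and the form with the insert is linked to RNA and splicing.

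The values are MAS5 signals, a linear brightness per probe set, and each probe set has its own affinity, so signals were compared between groups and not between probe sets. Differences are log2 of Wt1 siRNA over control siRNA with the standard error of the fit. The test was limma over the brighter part of all probe sets (22518), and a probe set is called higher or lower where its adjusted p was under 0.05. The single Wt1 probe set read 1679.3, 1531.0, 1316.8 and 1913.9 on the Wt1 siRNA arrays, against 8396.8, 7129.4, 8197.2 and 7423.0 on the control siRNA arrays. Wt1 thus stood at 20.5% of its control level, a log2 difference of -2.28 ± 0.11 (limma adjusted p = 9.17e-07), and the groups did not overlap.

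Median signals were 291.7, 299.1, 281.7 and 337.1 on the Wt1 siRNA arrays, against 336.1, 344.5, 279.1 and 346.1 on the control siRNA arrays. The ranges overlapped, but 3 Wt1 siRNA arrays lay lower than 3 control siRNA arrays, and centring on these medians ended calls as given below. The ratio of 3′ to 5′ probe sets, a sign of RNA quality, was 0.810 to 0.891 for Gapdh and 1.11 to 1.15 for Actb on Wt1 siRNA arrays, against 0.793 to 0.913 and 1.12 to 1.21 on control siRNA arrays. Of the marker lists for the labelled tissue, 6 of 8 kidney mesenchyme genes on the array were bright enough to test as probe sets, while Sall1 and Foxd1 stayed under the highest signal of the Bacillus subtilis control probe sets, 227.2. The summed signal of 3 podocyte markers was 1306 to 1837 on Wt1 siRNA arrays and 2767 to 5862 on control siRNA arrays. That of 4 leukocyte markers was 3256 to 3420 on Wt1 siRNA arrays and 2584 to 3069 on control siRNA arrays, with Ptprc near background in both groups, and its members differed in direction, with Cd68 averaging 2164 on Wt1 siRNA arrays and 1091 on control siRNA arrays and Csf1r 785 on Wt1 siRNA arrays and 1338 on control siRNA arrays. The 7 kidney mesenchyme markers other than Wt1 summed to 3085 to 3536 on Wt1 siRNA arrays and 2322 to 2921 on control siRNA arrays. Osr1 was the only one of them called, averaging 1623 on Wt1 siRNA arrays and 994 on control siRNA arrays (limma adjusted p = 0.0137). The other tested markers of this list differed in direction. Six2 and Eya1 averaged higher on Wt1 siRNA arrays, while Pdgfrb and Meis1 averaged lower, with log2 differences of -0.63 and -0.47. Endothelial markers summed to 2454 to 3121 on Wt1 siRNA arrays and 2710 to 3581 on control siRNA arrays, with Pecam1 and Tek near background, Kdr averaging 1452 on Wt1 siRNA arrays and 1995 on control siRNA arrays, and Eng 1046 on Wt1 siRNA arrays and 726 on control siRNA arrays. The part of these shifts in the results below was not tested. In RNA from a whole culture, fewer cells that express a gene and less of its RNA per cell cannot be told apart.

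Splicing factors moved in both directions, in shares near those of all probe sets. Of the 212 probe sets, 182 from 65 genes passed the brightness filter, and 26 were higher, 20 were lower and 136 did not pass the test. That is 25.3% called, against 23.1% of all tested probe sets (10.8% higher and 12.3% lower). The members' median difference was 0.00, against -0.01 over all tested probe sets. The groups did not overlap for 54 members, or 29.7%, against 27.0% of all tested probe sets. On brightest probe sets, 1 for each gene, 16 of 63 member genes were higher and 9 were lower, or 39.7% called, against a background of 37.3% (18.8% higher and 18.5% lower). Changes were small for most members: 22 differed by more than 0.5 on the log2 scale and 6 by more than 1.

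The counts depended on the arrays and on the scale. The 26 higher probe sets became 13 without control siRNA replicate 2, 14 without control siRNA replicate 4, and 17 without Wt1 siRNA replicate 1 or Wt1 siRNA replicate 2. The 16 higher genes became 9 without control siRNA replicate 4. Centring each array on its median shifted the median of all tested probe sets by 0.11, and 17 members were then higher and 9 lower, while the split of all tested probe sets moved to 2459 higher and 1369 lower from 2430 and 2764 on the deposited scale. No called member changed sign under any alternative that was run. At the threshold of 0.05, 20 of the 46 calls held under all other scalings, filters, fits and left-out arrays, and 17 of these also had an adjusted p under 0.01, the exceptions being Hnrnpab 1459880_at, Hnrnpdl 1449039_a_at and Hnrnpf 1423382_a_at. Median centring ended 20 calls, those of Srsf3, Srsf4, Srsf6 (both), Srsf10, Srsf11, Srpk1, Sf3a1 (both), Sf3b3, Sf3b4, Prpf3, Prpf38a, Prpf4b, Hnrnpa2b1, Hnrnpab, Hnrnpdl, Hnrnpf, Hnrnpm and Hnrnpr on 1 probe set each unless marked (adjusted p from 0.0503 to 0.451). Testing with no brightness filter ended 14, dropping the intensity trend 13 and quantile normalization 3. The 20 calls that held at 0.05 under every setting above that tested them lie in Hnrnpab, Hnrnpa0, Hnrnph3, Hnrnpd, Hnrnpdl, Hnrnpf, Srsf1, Srsf9, Prpf4, Prpf4b, Rbfox2 and Mbnl3.

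**Figure D1:**
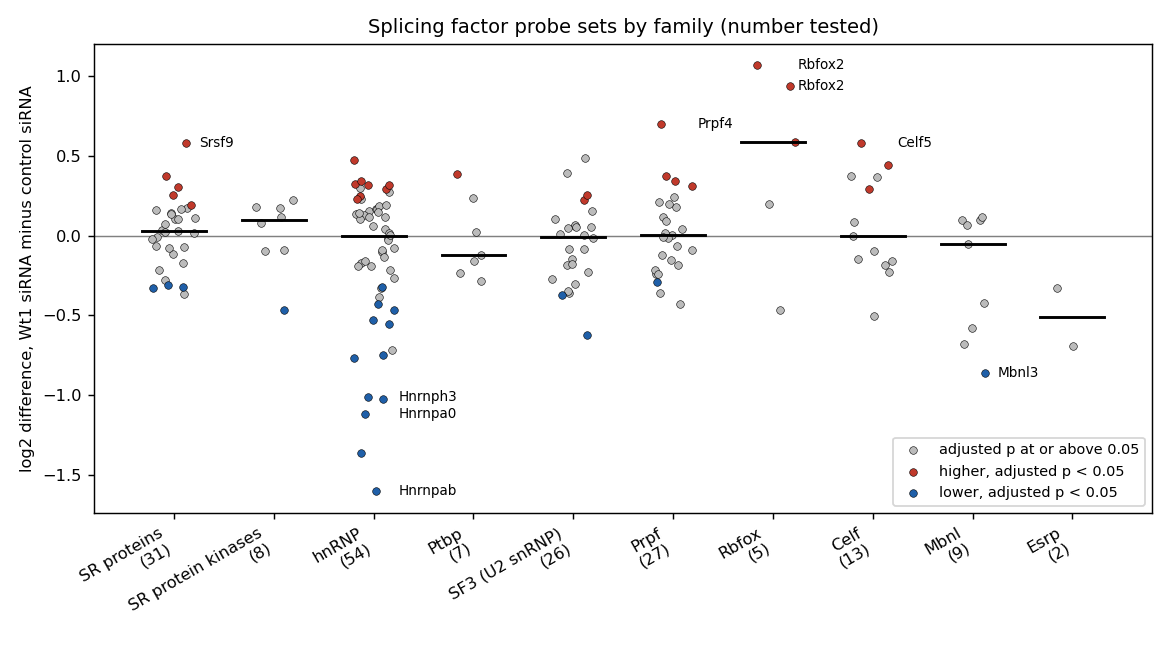
Log2 difference (Wt1 siRNA minus control siRNA, y axis) of each tested splicing factor probe set by family (x axis, number tested in brackets). Red points were higher and blue points lower at an adjusted p under 0.05, grey points did not pass, and each bar is the family's median. The hnRNP genes hold the lowest points, down to -1.60 in Hnrnpab, and Rbfox2 the highest, up to 1.07, while most points lie near 0.

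Promoters are shown for 5 members, since WT1 is also a DNA-binding factor: the hnRNP genes with the 3 largest falls and the genes with the largest change in the SR and Mbnl families, chosen after their values were seen. Rbfox2 is named only. Each is the RefSeq window of 300 bases from 250 before to 50 after the gene start (GRCm38.p6), on the gene's own strand. Capitals mark GCGNGGG on either strand, the core letters of the site described for WT1 without KTS and for EGR1, which can overlap GC boxes. The windows lie at chr11:51606832-51607131 (minus strand) for Hnrnpab, chr13:58128507-58128806 (minus strand) for Hnrnpa0, chr10:63023800-63024099 (minus strand) for Hnrnph3, chrX:51205941-51206240 (minus strand) for Mbnl3 and chr5:115326927-115327226 (plus strand) for Srsf9.
Hnrnpab: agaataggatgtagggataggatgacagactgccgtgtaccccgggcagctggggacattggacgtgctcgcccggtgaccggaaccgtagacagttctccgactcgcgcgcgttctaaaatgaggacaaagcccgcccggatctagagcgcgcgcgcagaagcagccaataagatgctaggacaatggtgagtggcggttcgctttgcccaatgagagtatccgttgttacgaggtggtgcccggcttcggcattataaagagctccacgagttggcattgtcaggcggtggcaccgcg
Hnrnpa0: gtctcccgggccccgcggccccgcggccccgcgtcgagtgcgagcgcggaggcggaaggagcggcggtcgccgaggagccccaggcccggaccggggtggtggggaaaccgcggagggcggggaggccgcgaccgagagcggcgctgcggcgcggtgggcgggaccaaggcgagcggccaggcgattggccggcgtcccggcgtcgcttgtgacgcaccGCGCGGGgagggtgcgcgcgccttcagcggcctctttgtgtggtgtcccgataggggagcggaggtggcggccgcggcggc
Hnrnph3: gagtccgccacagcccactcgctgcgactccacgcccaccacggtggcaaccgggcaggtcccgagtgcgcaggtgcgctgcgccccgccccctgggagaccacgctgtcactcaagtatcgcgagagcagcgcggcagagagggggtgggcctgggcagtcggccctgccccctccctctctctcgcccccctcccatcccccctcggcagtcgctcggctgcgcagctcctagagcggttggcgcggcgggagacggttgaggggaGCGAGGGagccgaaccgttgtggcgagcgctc
Mbnl3: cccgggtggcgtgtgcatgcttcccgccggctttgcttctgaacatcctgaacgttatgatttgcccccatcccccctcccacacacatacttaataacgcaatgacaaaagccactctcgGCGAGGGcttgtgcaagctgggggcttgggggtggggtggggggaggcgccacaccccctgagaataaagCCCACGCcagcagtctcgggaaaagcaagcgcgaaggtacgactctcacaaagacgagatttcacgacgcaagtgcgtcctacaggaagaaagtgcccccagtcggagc
Srsf9: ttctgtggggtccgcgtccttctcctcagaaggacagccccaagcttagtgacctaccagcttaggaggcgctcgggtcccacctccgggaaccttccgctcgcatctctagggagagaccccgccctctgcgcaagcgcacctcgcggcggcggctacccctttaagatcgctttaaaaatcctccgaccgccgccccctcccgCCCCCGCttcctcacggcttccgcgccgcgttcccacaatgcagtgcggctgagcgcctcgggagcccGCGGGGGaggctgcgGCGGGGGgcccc
The letters were found 0 times in the Hnrnpab window, 1 time each in those of Hnrnpa0 and Hnrnph3, 2 times in that of Mbnl3 and 3 times in that of Srsf9. They occurred in 32 of the 59 member genes with a window (54.2%), against 45.1% of protein-coding genes with a tested probe set and 25.2% of all genes with a window. Among member genes they occurred in 9 of 14 whose called probe sets were higher, 5 of 9 whose called probe sets were lower and 14 of 29 with none called. A match of letters is a description and not a measured binding site.

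The hnRNP genes held the largest falls. Of their 54 tested probe sets, 8 were higher and 12 lower, with a median of -0.01. That is 37.0% called, against 23.1% of all tested probe sets, and 25 (46.3%) had an unadjusted p under 0.05, against 35.9% of all. Of the 12 lower, 6 were probe sets of Hnrnpab. On brightest probe sets, 1 for each gene, 6 of 19 hnRNP genes were higher and 5 lower (57.9% called, against 37.3% of all genes). Brighter probe sets passed more often: among the brightest (a share of 0.25), 2126 of 11259 were higher and 1848 lower. Members were brighter than most, with a median of the mean signals of 4942 against 1541 over all tested. The part of brightness in these hnRNP shares was not tested. Hnrnpab, an RNA-binding protein of mRNA transport also known as a DNA-binding factor, fell on 6 of its 7 probe sets. Its probe set 1448144_at read 2965.0, 3357.3, 3792.7 and 2978.1 on the Wt1 siRNA arrays, against 8210.1, 8443.4, 8943.0 and 7885.1 on the control siRNA arrays. Every Wt1 siRNA array was thus far under every control siRNA array, at 38.9% of the control level and a log2 difference of -1.36 ± 0.09 (limma adjusted p = 3.55e-06). The dimmer 1431349_at read 344.4, 369.5, 327.1 and 477.1 on the Wt1 siRNA arrays, against 1172.8, 1119.2, 1340.5 and 962.1 on the control siRNA arrays, and differed by -1.60 ± 0.17 (limma adjusted p = 7.25e-05). The fall was smaller on the brightest probe set, 1415914_at, at -0.56 ± 0.10 (limma adjusted p = 0.00188), and 1455855_x_at, 1453849_s_at and 1459880_at differed by -0.47 ± 0.09, -0.75 ± 0.07 and -1.02 ± 0.25. The one probe set that did not pass, 1426114_at, had -0.19 ± 0.33 (limma adjusted p = 0.727). Centring on array medians ended the call of 1455855_x_at (adjusted p = 0.107) and of no other Hnrnpab probe set.

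Hnrnpa0, which binds AU-rich elements of mRNAs, on its only probe set read 6394.1, 5687.5, 6666.2 and 5332.0 on the Wt1 siRNA arrays, against 11871.0, 12494.3, 15125.5 and 12877.4 on the control siRNA arrays. All Wt1 siRNA arrays lay under all control siRNA arrays, and the level was 46.0% of control, a log2 difference of -1.12 ± 0.10 (limma adjusted p = 1.68e-05). Hnrnph3, a member of the group that binds runs of G, averaged 693 ± 54.4 on Wt1 siRNA arrays and 1402 ± 186 on control siRNA arrays (SD, n = 4 each) and differed by -1.01 ± 0.14 (limma adjusted p = 0.000368). Hnrnpm, which binds GU-rich RNA, differed by -0.43 ± 0.07 (limma adjusted p = 0.00137). The Hnrnpm call ended under centring on array medians (adjusted p = 0.134) and held when any 1 array was left out.

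Several other hnRNP genes rose, by less than Hnrnpa0 and Hnrnph3 fell. Hnrnpd, also called AUF1, which binds AU-rich elements and promotes mRNA decay, on 1425142_a_at read 16798.9, 15539.3, 13501.3 and 15014.9 on the Wt1 siRNA arrays, against 12769.7, 10888.9, 10095.7 and 10179.0 on the control siRNA arrays. The groups were apart, with a 1.39-fold level in Wt1 siRNA cells and a log2 difference of 0.47 ± 0.09 (limma adjusted p = 0.00387). Its close relative Hnrnpdl rose on 1449039_a_at, which read 11779.6, 11587.9, 10958.5 and 11306.1 on the Wt1 siRNA arrays, against 9298.5, 9798.7, 9608.0 and 7844.3 on the control siRNA arrays and differed by 0.33 ± 0.08 (limma adjusted p = 0.0131). Hnrnpf, a G-run binder, rose on 3 of 4 probe sets. The largest Hnrnpf difference was on 1423382_a_at, with 23439.4, 21462.3, 23431.7 and 27217.9 on the Wt1 siRNA arrays, against 17636.9, 19900.7, 18330.6 and 19393.7 on the control siRNA arrays and a difference of 0.34 ± 0.08 (limma adjusted p = 0.0119). The next were 1450963_at at 0.31 ± 0.06 (limma adjusted p = 0.00429) and 1456664_x_at at 0.25 ± 0.07 (limma adjusted p = 0.0203), the second of which no longer passed without Wt1 siRNA replicate 2 (adjusted p = 0.0578), control siRNA replicate 2 (adjusted p = 0.0554) or control siRNA replicate 4 (adjusted p = 0.0699). Hnrnpr rose by 0.23 ± 0.07 (limma adjusted p = 0.0353) on 1437526_x_at, and the call ended when leaving out any 1 array other than Wt1 siRNA replicate 1 and control siRNA replicate 3 (adjusted p up to 0.0967). Its other tested probe sets lay between -0.72 and 0.16 with no call.

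Other hnRNP genes gave no call at the probe set level. Hnrnpa1, which represses exons and shares sequence with processed pseudogenes, had differences between -0.33 and -0.01 on 3 probe sets. Hnrnpc, Hnrnpk, Hnrnph1, Hnrnph2, Hnrnpll, Hnrnpul1 and Hnrnpu also gave none, with Hnrnpu between -0.08 and 0.27. Hnrnpl (0.30) and Hnrnpul2 (-0.26) passed only in the gene-level test, at limma adjusted p = 0.0475 and 0.0329.

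Of the SR proteins, Srsf9 changed the most. The family had 31 tested probe sets from 9 of 10 genes, and 5 were higher, 3 were lower and 23 did not pass, with a median of 0.03. The share called was 25.8%, against 23.1% of all tested probe sets. Srsf9, a small SR protein that binds exonic enhancers, read 19174.7, 20028.5, 18428.9 and 19771.1 on the Wt1 siRNA arrays, against 12842.9, 13092.9, 13735.5 and 12128.8 on the control siRNA arrays. All Wt1 siRNA arrays were above all control siRNA arrays, at a 1.49-fold level and a log2 difference of 0.58 ± 0.07 (limma adjusted p = 0.000113). Srsf1, the classic splicing activator SF2, had 1 of 6 probe sets called. On 1428100_at it read 4059.0, 4115.4, 4568.9 and 4500.1 on the Wt1 siRNA arrays, against 3230.5, 3111.6, 3781.1 and 3236.5 on the control siRNA arrays, a difference of 0.37 ± 0.09 (limma adjusted p = 0.00952), while the other probe sets lay between -0.07 and 0.17.

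The remaining SR calls were small, and most were lost when single arrays were left out. Srsf6, which binds exonic enhancers, had 2 of 4 probe sets lower. On 1447898_s_at it read 7780.3, 7664.6, 8023.2 and 7076.0 on the Wt1 siRNA arrays, against 8041.6, 10794.8, 9732.0 and 9751.1 on the control siRNA arrays, with a difference of -0.32 ± 0.09 (limma adjusted p = 0.0256) that ended without any 1 array other than Wt1 siRNA replicate 3, control siRNA replicate 1 and control siRNA replicate 3 (adjusted p up to 0.0774). On 1416720_at it read 5090.4, 5766.4, 5509.1 and 4821.2 on the Wt1 siRNA arrays, against 6177.4, 6520.4, 6798.8 and 6723.1 on the control siRNA arrays, with a difference of -0.31 ± 0.08 (limma adjusted p = 0.0137) that held without any 1 array and ended under median centring (adjusted p = 0.360). The groups did not overlap on either of these Srsf6 probe sets. The brightest Srsf6 probe set, 1448454_at, gave 0.11 (limma adjusted p = 0.441), with no call. Srsf10, which acts as a repressor when dephosphorylated, on 1449121_at read 3983.6, 3834.0, 3493.4 and 3144.1 on the Wt1 siRNA arrays, against 4604.3, 3934.5, 5318.1 and 4347.1 on the control siRNA arrays. Those groups overlapped, and the difference of -0.33 ± 0.11 (limma adjusted p = 0.0457) ended without any 1 array other than Wt1 siRNA replicate 1 and control siRNA replicate 2 (adjusted p up to 0.0983). The brightest Srsf10 probe set, 1423982_at, gave 0.14 (limma adjusted p = 0.326), with no call.

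Srsf3, the smallest SR protein and also an mRNA export adaptor, on 1434512_x_at read 13958.9, 13521.7, 14952.8 and 11403.0 on the Wt1 siRNA arrays, against 9471.7, 11662.2, 10961.4 and 11477.9 on the control siRNA arrays, again with overlapping groups. Its difference of 0.30 ± 0.10 (limma adjusted p = 0.0424) ended without any 1 array other than Wt1 siRNA replicate 4 (adjusted p up to 0.117). The other Srsf3 probe sets lay between -0.17 and 0.16 with no call, and the brightest, 1416150_a_at, gave 0.01 (limma adjusted p = 0.928). Srsf4 on its only probe set and Srsf11 on 1 of 4 rose by 0.25 ± 0.08 (limma adjusted p = 0.0307) and 0.19 ± 0.06 (limma adjusted p = 0.0435). The other Srsf11 probe sets lay between -0.08 and -0.01 with no call. The Srsf4 call ended without any 1 array other than Wt1 siRNA replicate 2, Wt1 siRNA replicate 3 and control siRNA replicate 3 (adjusted p up to 0.0973), and the Srsf11 call without any 1 array other than Wt1 siRNA replicate 4 and control siRNA replicate 3 (adjusted p up to 0.128). Srsf2, which activates exons, had no call on 4 probe sets, with differences between -0.36 and 0.13, and Srsf5 had -0.02 ± 0.14 (limma adjusted p = 0.941).

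Srpk1 phosphorylates the arginine and serine rich domains of SR proteins and is described as a gene that WT1 represses in human podocytes. Its probe set 1455107_at read 3033.0, 3087.0, 2592.2 and 2069.1 on the Wt1 siRNA arrays, against 3678.4, 3602.1, 3370.2 and 4092.9 on the control siRNA arrays. It stood at 72.4% of control, a difference of -0.47 ± 0.13 (limma adjusted p = 0.0203), and the groups did not overlap. The call ended without control siRNA replicate 4 (adjusted p = 0.0665) and under median centring (adjusted p = 0.144), and the other Srpk1 probe set had 0.18 ± 0.11 (limma adjusted p = 0.257). None of the 6 Srpk2 probe sets passed, with differences between -0.10 and 0.22.

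Ptbp1, the polypyrimidine tract binding protein that holds neuronal exons out of mRNAs in other cells, rose on 1 of 3 probe sets. On 1424874_a_at it read 33434.8, 33717.2, 29996.7 and 36485.0 on the Wt1 siRNA arrays, against 29860.3, 22106.0, 24177.6 and 26684.7 on the control siRNA arrays, a difference of 0.38 ± 0.10 (limma adjusted p = 0.0163). The lowest Wt1 siRNA array was just above the highest control siRNA array, and the call ended without control siRNA replicate 2 (adjusted p = 0.0522) and under quantile normalization (adjusted p = 0.160). The other 6 tested probe sets of Ptbp1, Ptbp2 and Ptbp3 did not pass, with differences between -0.29 and 0.24.

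**Figure D2:**
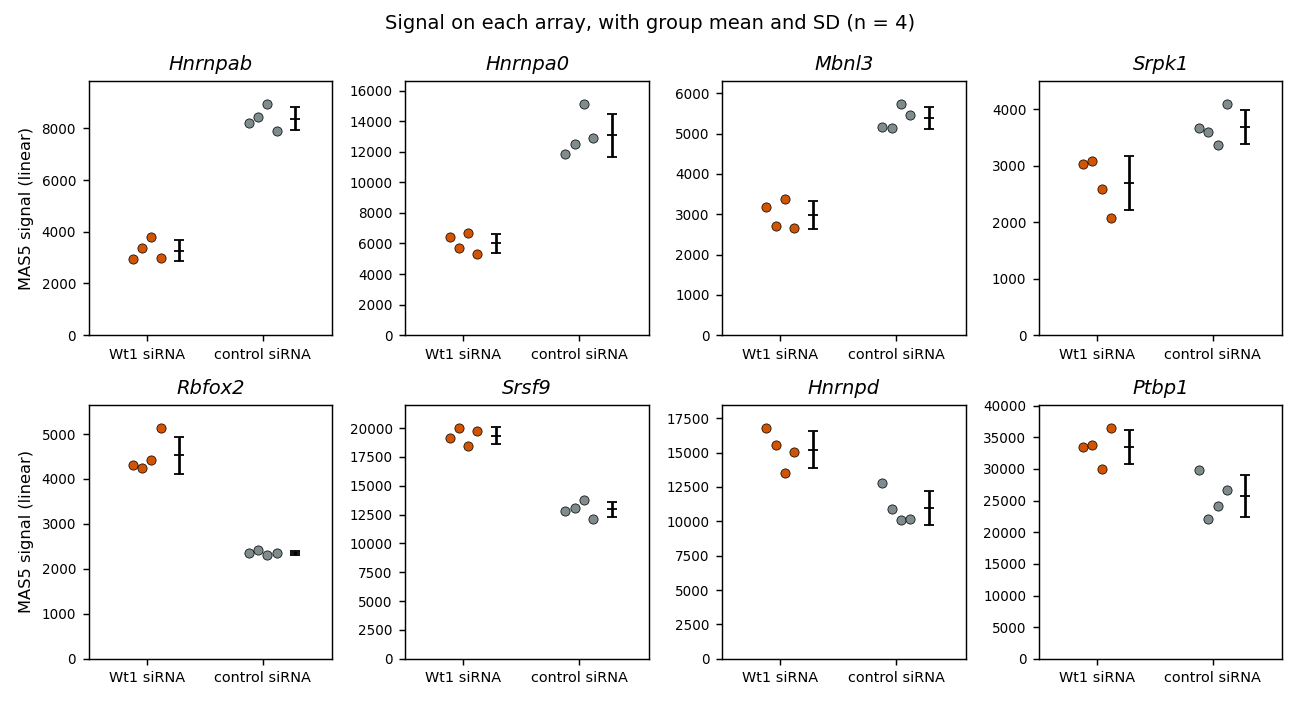
MAS5 signal (linear, y axis from 0) on each of the 4 Wt1 siRNA arrays (orange) and 4 control siRNA arrays (grey), with the group mean and SD, for 1 probe set each of 8 splicing factors. Each is the gene's probe set with the smallest adjusted p, a choice that favours separated groups. Hnrnpab, Hnrnpa0, Mbnl3 and Srpk1 are lower and Rbfox2, Srsf9, Hnrnpd and Ptbp1 higher with Wt1 siRNA on these probe sets, and the groups do not overlap in any panel. Not shown are Hnrnpd 1457568_at, which was called lower (-0.77), and the brightest probe sets of Srpk1 and Rbfox2, which were not called.

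The genes of the core U2 snRNP were called in both directions. Among 26 tested SF3A and SF3B probe sets, 2 were higher, 2 were lower and 22 did not pass, with a median of -0.01. That is 15.4% called, against 23.1% of all tested probe sets, and 10 (38.5%) had an unadjusted p under 0.05, against 35.9% of all. On brightest probe sets 4 of 9 genes were called (44.4%, against 37.3% of all genes), Sf3a1 and Sf3b3 higher and Sf3a3 and Sf3b4 lower. Sf3b4, which crosslinks to pre-mRNA near the branch point, on 1436784_x_at read 3672.1, 3193.8, 3254.9 and 3715.9 on the Wt1 siRNA arrays, against 4712.5, 4487.9, 4337.3 and 4357.3 on the control siRNA arrays, a difference of -0.37 ± 0.08 (limma adjusted p = 0.00600). Its groups did not overlap, its other probe set gave -0.31 ± 0.10 (limma adjusted p = 0.0509), and the call ended under median centring (adjusted p = 0.174). Sf3b3, a scaffold subunit of SF3B, read 11631.9, 11038.3, 11380.3 and 12270.5 on the Wt1 siRNA arrays, against 8987.8, 9543.6, 10917.6 and 9404.0 on the control siRNA arrays. That difference of 0.26 ± 0.08 (limma adjusted p = 0.0311) ended without any 1 array other than control siRNA replicate 3 (adjusted p up to 0.0892).

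Sf3a1, the largest SF3A subunit, had probe sets called both ways. On 1449333_at it read 6050.1, 5804.2, 5347.7 and 5938.8 on the Wt1 siRNA arrays, against 5101.9, 4884.1, 5138.0 and 4676.0 on the control siRNA arrays, a difference of 0.22 ± 0.07 (limma adjusted p = 0.0429). The much dimmer 1446687_at read 480.3, 483.5, 399.2 and 275.1 on the Wt1 siRNA arrays, against 650.5, 630.5, 599.8 and 578.4 on the control siRNA arrays, a difference of -0.62 ± 0.21 (limma adjusted p = 0.0483). Neither call was stable: the first ended without any 1 array other than Wt1 siRNA replicate 3 and control siRNA replicate 3 (adjusted p up to 0.127) and the second without any 1 of the 8 arrays (adjusted p up to 0.104). Sf3b1, the branch point subunit, had no call on 4 probe sets, and its brightest, 1449138_at, gave 0.06 ± 0.07 (limma adjusted p = 0.539). No call was made on Sf3b2, Sf3b5 or Sf3b6, and Sf3a3 (-0.28) passed only at the gene level (limma adjusted p = 0.0289).

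Of 27 tested Prpf probe sets, 4 were higher and 1 was lower (18.5% called, against 23.1% of all tested probe sets), with a median of 0.00. Prpf4, a U4/U6 snRNP protein, rose on the dimmer of its probe sets. The 1438481_at signals were 1108.8, 1157.0, 1013.5 and 1221.2 on the Wt1 siRNA arrays, against 672.3, 854.2, 570.6 and 703.4 on the control siRNA arrays, a 1.62-fold level and a difference of 0.70 ± 0.15 (limma adjusted p = 0.00593). Its brighter probe set 1429724_at gave 0.20 ± 0.13 (limma adjusted p = 0.284). Prpf4b, a kinase that phosphorylates tri-snRNP proteins, on 1425498_at read 5223.5, 5469.8, 5315.0 and 4690.5 on the Wt1 siRNA arrays, against 4006.7, 3935.3, 4260.1 and 4134.5 on the control siRNA arrays, a difference of 0.34 ± 0.07 (limma adjusted p = 0.00705) with groups apart. A second Prpf4b probe set, 1451909_a_at, rose by 0.31 ± 0.09 (limma adjusted p = 0.0295), which ended without any 1 array other than Wt1 siRNA replicate 4, control siRNA replicate 1 and control siRNA replicate 3 (adjusted p up to 0.0841).

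Prpf3, another U4/U6 protein, read 3495.9, 3258.1, 3652.9 and 3841.0 on the Wt1 siRNA arrays, against 2897.8, 2324.7, 3322.2 and 2553.4 on the control siRNA arrays. The groups overlapped, and the difference of 0.37 ± 0.11 (limma adjusted p = 0.0339) ended without any 1 array other than Wt1 siRNA replicate 2, control siRNA replicate 1 and control siRNA replicate 3 (adjusted p up to 0.0963). Prpf38a, needed for spliceosome activation, read 5474.7, 5541.7, 6360.1 and 5133.8 on the Wt1 siRNA arrays, against 6429.6, 6696.7, 7643.8 and 6740.2 on the control siRNA arrays. That difference of -0.29 ± 0.09 (limma adjusted p = 0.0304) ended without any 1 array other than Wt1 siRNA replicate 3 and control siRNA replicate 1 (adjusted p up to 0.0783). Prpf8, the scaffold of the catalytic centre, had -0.01 ± 0.06 (limma adjusted p = 0.956), and the 4 tested probe sets of Prpf19, a ubiquitin ligase, lay between 0.00 and 0.18 with no call.

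Rbfox2 gave the largest rises. The protein binds intronic elements beside alternative exons and is widely expressed, unlike Rbfox1 and Rbfox3. Its probe set 1434938_at read 4309.7, 4235.3, 4413.6 and 5137.5 on the Wt1 siRNA arrays, against 2356.4, 2414.5, 2316.7 and 2349.7 on the control siRNA arrays. The lowest Wt1 siRNA array was far above the highest control siRNA array, at a 1.91-fold level and a difference of 0.94 ± 0.08 (limma adjusted p = 2.09e-05). The 1418246_at signals were 867.5, 1023.0, 935.2 and 1429.4 on the Wt1 siRNA arrays, against 464.4, 499.8, 470.9 and 563.2 on the control siRNA arrays, a difference of 1.07 ± 0.18 (limma adjusted p = 0.00129). On 1418247_s_at they were 1461.5, 1502.2, 1595.9 and 1650.3 on the Wt1 siRNA arrays, against 1111.0, 1006.2, 889.4 and 1147.5 on the control siRNA arrays, a difference of 0.59 ± 0.12 (limma adjusted p = 0.00412). All of these calls held without any 1 array and under every other alternative in which the probe set was tested. Not every alternative tested 1418246_at and 1418247_s_at. The brightest Rbfox2 probe set, 1418245_a_at, gave 0.20 ± 0.17 (limma adjusted p = 0.424), so the gene-level test, which uses it, made no call. No Rbfox1 probe set passed the brightness filter, and the tested Rbfox3 probe set gave -0.47 ± 0.39 (limma adjusted p = 0.430).

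Of 13 tested Celf probe sets, 3 were higher and none lower (5 with an unadjusted p under 0.05 in limma), with a median of 0.00. The share called was 23.1%, the same as over all tested probe sets. Celf5, best known from brain, read 1895.4, 2484.7, 1672.1 and 1929.0 on the Wt1 siRNA arrays, against 1625.7, 1041.6, 1308.1 and 1365.8 on the control siRNA arrays, a difference of 0.58 ± 0.16 (limma adjusted p = 0.0191) that ended without Wt1 siRNA replicate 2 (adjusted p = 0.0606) or control siRNA replicate 2 (adjusted p = 0.0529). Celf4, also a brain regulator, on 1426930_at read 910.3, 750.4, 975.3 and 830.3 on the Wt1 siRNA arrays, against 609.6, 591.6, 696.9 and 650.4 on the control siRNA arrays, a difference of 0.44 ± 0.14 (limma adjusted p = 0.0447) that ended without any 1 array other than Wt1 siRNA replicate 2 and control siRNA replicate 3 (adjusted p up to 0.122). Of the 5 neuronal markers Rbfox3 alone was bright enough to test and did not pass, and their summed signal was 693 to 1003 on Wt1 siRNA arrays and 896 to 1189 on control siRNA arrays. Celf1, which binds GU-rich elements and opposes Mbnl proteins at many exons, on 1427413_a_at read 3543.1, 4052.4, 3858.5 and 3716.1 on the Wt1 siRNA arrays, against 3226.5, 3029.5, 3023.9 and 3078.2 on the control siRNA arrays. That difference of 0.29 ± 0.08 (limma adjusted p = 0.0161) ended without Wt1 siRNA replicate 2 (adjusted p = 0.0582), and the other 4 Celf1 probe sets lay between -0.23 and 0.37 with no call.

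Mbnl3 fell. Muscleblind proteins switch exons from fetal to adult patterns, and Mbnl3 is the member known for the earlier, undifferentiated state in muscle. Its probe set 1434678_at read 3167.3, 2717.4, 3374.3 and 2646.7 on the Wt1 siRNA arrays, against 5171.2, 5151.9, 5732.8 and 5457.6 on the control siRNA arrays. Every Wt1 siRNA array was under every control siRNA array, at 55.1% of control and a difference of -0.86 ± 0.09 (limma adjusted p = 7.64e-05), and the call held under all alternatives that were run. The other Mbnl3 probe sets gave -0.42 ± 0.17 (limma adjusted p = 0.0979) and -0.58 ± 0.23 (limma adjusted p = 0.0965). The Mbnl1 probe set gave 0.10 ± 0.10 (limma adjusted p = 0.543), and the 5 tested Mbnl2 probe sets gave no call. Of 5 muscle markers Des and Ckm were bright enough to test and did not pass, with summed signals of 1258 to 1445 on Wt1 siRNA arrays and 1267 to 1667 on control siRNA arrays.

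The epithelial regulator Esrp2 gave no call on either probe set, at -0.69 ± 0.29 (limma adjusted p = 0.114) and -0.33 ± 0.17 (limma adjusted p = 0.177), and Esrp1 was under the brightness filter. The summed signal of 5 epithelial markers was 19347 to 20483 on Wt1 siRNA arrays and 21543 to 23488 on control siRNA arrays. These markers differed in direction: Epcam averaged 494 on Wt1 siRNA arrays and 2246 on control siRNA arrays, and Krt18 9160 on Wt1 siRNA arrays and 10486 on control siRNA arrays, while Cdh1 averaged 794 on Wt1 siRNA arrays and 415 on control siRNA arrays, and Krt8 2406 on Wt1 siRNA arrays and 1678 on control siRNA arrays. The first pair was called lower and the second higher, Krt19 was not called, and their part in the results was not tested. The 30 member probe sets that were not tested had group means of at most 367.7, and Celf6, Rbfox1, Srsf12 and Esrp1 had no tested probe set.

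Probe sets of 1 gene were set against each other. Of 47 genes with more than 1 tested probe set, 28 (59.6%) had differences of both signs, against 37.7% of all such genes. In 4 of them (8.51%), Hnrnpa2b1, Hnrnpd, Hnrnpdl and Sf3a1, there were calls in both directions, against 0.712% of all such genes. Member genes had 3.49 tested probe sets each on average and all such genes 2.67, and the part of this in the shares was not tested. The disagreement itself was tested with limma as the log2 signal of a gene's brightest probe set minus that of each other tested probe set, Wt1 siRNA against control siRNA. It passed for 11 of 117 member pairs (9.40%), in 8 genes, against 2.12% of all 8691 pairs. Pairs of 1 gene share its brightest probe set. Among the brightest probe sets (a share of 0.25), it passed for 9 of 79 member pairs (11.4%), against 3.15% of all pairs there. Members are brighter than most probe sets, with a median of the mean signals of 4942 against 1541 over all tested, and brighter pairs pass more often. The 11 pairs became 4 without Wt1 siRNA replicate 1, Wt1 siRNA replicate 3 or control siRNA replicate 2, 3 without Wt1 siRNA replicate 2, 5 without control siRNA replicate 4 and 6 without control siRNA replicate 1. Of the genes with more than 1 tested probe set, 5 had more than 1 call and all in the same direction.

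Hnrnpd showed the largest such disagreement. Its bright 1425142_a_at was higher, as above, while the dimmer 1457568_at fell by 0.77 ± 0.16 (limma adjusted p = 0.00459). The log2 ratio of the first to the second was 4.46, 4.56, 4.39 and 4.58 on the Wt1 siRNA arrays, against 3.74, 3.47, 2.90 and 2.94 on the control siRNA arrays. These values did not overlap between groups and the ratio rose by 1.24 ± 0.21 (limma adjusted p = 0.0120), a call that ended without Wt1 siRNA replicate 2 (adjusted p = 0.0508). Hnrnpab fell less on its brightest probe set than on some others, while 1455855_x_at (-0.47) and 1426114_at (-0.19, not called) differed by less than the brightest. The log2 ratio of 1415914_at to 1448144_at was 3.10, 2.64, 2.78 and 3.13 on the Wt1 siRNA arrays, against 1.93, 2.23, 2.10 and 2.18 on the control siRNA arrays, a difference of 0.80 ± 0.13 (limma adjusted p = 0.0105) that held without any 1 array. The ratio of 1415914_at to 1431349_at was 6.20, 5.83, 6.32 and 5.77 on the Wt1 siRNA arrays, against 4.73, 5.14, 4.83 and 5.22 on the control siRNA arrays, a difference of 1.05 ± 0.20 (limma adjusted p = 0.0243) that ended without any 1 array other than Wt1 siRNA replicate 4, control siRNA replicate 3 and control siRNA replicate 4 (adjusted p up to 0.0831). It also ended under the replicate block (adjusted p = 0.0839) and quantile normalization (adjusted p = 0.0556).

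Hnrnpa2b1, which sorts mRNAs for transport and binds methylated RNA, rose on its brightest probe set and fell on another. The brightest, 1420365_a_at, differed by 0.29 ± 0.08 (limma adjusted p = 0.0194), a call that ended without control siRNA replicate 4 (adjusted p = 0.0693). By contrast, 1433830_at differed by -0.53 ± 0.09 (limma adjusted p = 0.00206), a call that ended under median centring (adjusted p = 0.0699). The log2 ratio of these probe sets was 2.55, 2.37, 2.45 and 3.002 on the Wt1 siRNA arrays, against 1.76, 1.82, 1.84 and 1.66 on the control siRNA arrays, a difference of 0.82 ± 0.14 (limma adjusted p = 0.0110). Against 1433829_a_at the ratio changed by 0.40 ± 0.05 (limma adjusted p = 0.00495), and both changes held without any 1 array. That against 1433829_a_at ended without the intensity trend (adjusted p = 0.0867). Against 1434047_x_at the ratio changed by 0.32 ± 0.07 (limma adjusted p = 0.0453), which ended without any 1 array other than control siRNA replicate 1 and control siRNA replicate 3 (adjusted p up to 0.130). It also ended under the replicate block, quantile normalization, no brightness filter and no intensity trend (adjusted p up to 0.184).

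Hnrnpdl rose on 1424251_a_at by 0.32 ± 0.10 (limma adjusted p = 0.0329), and differed by -0.32 ± 0.10 (limma adjusted p = 0.0309) on 1428225_s_at. The first call ended without any 1 array other than Wt1 siRNA replicate 2 and control siRNA replicate 3 (adjusted p up to 0.0825) and the second without any 1 array other than Wt1 siRNA replicate 2, control siRNA replicate 1 and control siRNA replicate 3 (adjusted p up to 0.0940). Their log2 ratio was 3.86, 3.50, 3.84 and 4.05 on the Wt1 siRNA arrays, against 3.03, 3.25, 3.33 and 3.06 on the control siRNA arrays, a difference of 0.64 ± 0.15 (limma adjusted p = 0.0486), and the call ended without any 1 array other than control siRNA replicate 3 (adjusted p up to 0.149). In Prpf4b the log2 ratio of 1425498_at to 1455696_a_at was 1.43, 1.56, 1.57 and 2.03 on the Wt1 siRNA arrays, against 1.06, 0.80, 0.87 and 1.07 on the control siRNA arrays. It differed by 0.70 ± 0.16 (limma adjusted p = 0.0477), a call that ended without any 1 array other than control siRNA replicate 3 (adjusted p up to 0.129). Smaller disagreements passed in Srsf10 at 0.47 ± 0.11 (limma adjusted p = 0.0483), Srsf6 at 0.39 ± 0.08 (limma adjusted p = 0.0363) and Hnrnpul2 at -0.46 ± 0.10 (limma adjusted p = 0.0426). Each of these ended without any 1 of 7 arrays, control siRNA replicate 3 being the exception. The replicate block, no brightness filter and no intensity trend each ended these and the Hnrnpdl and Prpf4b pairs above (adjusted p from 0.0507 to 0.127). Quantile normalization ended all of them except that of Hnrnpul2 (adjusted p from 0.0508 to 0.0645).

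In Rbfox2, where calls and their absence stood side by side, the ratio of 1418245_a_at to 1434938_at changed by -0.73 ± 0.20 (limma adjusted p = 0.0902) and did not pass. Suffixes _a_at, _s_at and _x_at mark probe sets that can match several transcripts or share probes with other sequences. Without those, 14 members were higher and 13 lower, and 2 pairs passed. Probe positions within transcripts were not used here, so the disagreements cannot be assigned to isoforms or transcript ends.

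**Figure D3:**
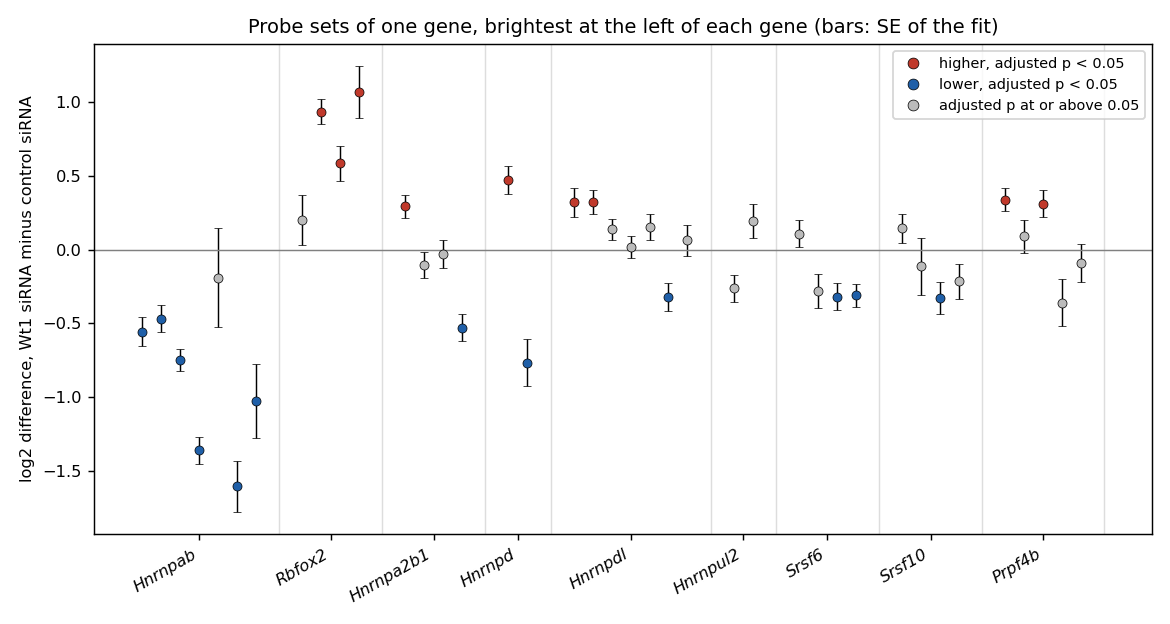
Log2 difference (Wt1 siRNA minus control siRNA, y axis, bars show the SE of the fit) of each tested probe set of 9 splicing factors (x axis), with the brightest at the left of each gene. Hnrnpab is lower at 6 of 7 probe sets but by different amounts, Rbfox2 is higher at 3 of 4, and Hnrnpa2b1, Hnrnpd and Hnrnpdl have red (higher) and blue (lower) probe sets side by side.

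Other spliceosome and splicing genes, listed by role, also changed in both directions. Of 106 listed genes 91 were tested on their brightest probe sets, and 19 were higher, 11 were lower and 61 did not pass, or 33.0% called, against 37.3% of all genes. Their median was 0.06. The 19 became 9 without control siRNA replicate 4, 10 without control siRNA replicate 2, 11 without Wt1 siRNA replicate 1 or control siRNA replicate 1, and 12 without Wt1 siRNA replicate 2.

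In the U1, U2 and Sm snRNP list 17 genes were tested, with a median of 0.10 and 29.4% called, against 37.3% of all genes. Of them 5 were higher and none lower (1 lower at an unadjusted p under 0.05 in limma). They included Snrpb2, the U2 B″ protein, at 0.33 ± 0.08 (limma adjusted p = 0.00544), Snrpc, a U1 protein, at 0.23 ± 0.07 (limma adjusted p = 0.0227), and U2af2 at 0.29 ± 0.08 (limma adjusted p = 0.0127). U2af2 encodes the large subunit of the factor that marks the 3′ splice site and has been described as a partner of WT1 with KTS. The Snrpc call ended without Wt1 siRNA replicate 1 (adjusted p = 0.0617), Wt1 siRNA replicate 3 (adjusted p = 0.0634) or control siRNA replicate 1 (adjusted p = 0.0586). Of 19 tri-snRNP and Prp19 complex genes 1 was higher and 4 were lower (26.3% called, against 37.3% of all genes), with a median of -0.08. The falls were led by Syf2 at -0.63 ± 0.09 (limma adjusted p = 0.000133), Xab2 at -0.52 ± 0.11 (limma adjusted p = 0.00301) and Snw1 at -0.33 ± 0.07 (limma adjusted p = 0.00198), all factors of the Prp19-related complexes, and Txnl4a, a U5 protein, was the rise at 0.25 ± 0.09 (limma adjusted p = 0.0427). The Txnl4a call ended without any 1 array other than Wt1 siRNA replicate 4 and control siRNA replicate 2 (adjusted p up to 0.129).

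Among the helicases, which rearrange the snRNAs, 1 of 9 was higher and 2 were lower (33.3% called, against 37.3% of all genes), with a median of -0.02. Ddx39b, also an export factor, was at -0.35 ± 0.09 (limma adjusted p = 0.00665), Ddx46 at -0.26 ± 0.08 (limma adjusted p = 0.0163) and Ddx17 at 0.27 ± 0.08 (limma adjusted p = 0.0219). The Ddx46 call ended without Wt1 siRNA replicate 2 (adjusted p = 0.0502) and the Ddx17 call without control siRNA replicate 1 (adjusted p = 0.0562), control siRNA replicate 2 (adjusted p = 0.0519) or control siRNA replicate 4 (adjusted p = 0.0564). Ddx46 was 0.16 (adjusted p = 0.324) when its probe sets were averaged. In the exon junction and SR-related list 8 of 17 were higher and 1 lower (52.9% called, against 37.3% of all genes), with a median of 0.14. Scaf1 was at 0.73 ± 0.26 (limma adjusted p = 0.0439), Scaf8 at 0.49 ± 0.08 (limma adjusted p = 0.000298) and Scaf11 at 0.39 ± 0.11 (limma adjusted p = 0.0114), all SR-related CTD-associated factors, and Pnn, which binds the exon junction complex, at -0.36 ± 0.08 (limma adjusted p = 0.00264). The Scaf1 call ended without any 1 array other than Wt1 siRNA replicate 3 and control siRNA replicate 1 (adjusted p up to 0.108). Of the other rises in this list, those of Casc3, Rnps1, Acin1 and Srrm2 also ended when single arrays were left out (adjusted p up to 0.134). Those of Scaf8, Scaf11 and Rbm25 held without any 1 array.

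The splicing kinases outside the Srpk genes had 1 of 5 lower (20% called, against 37.3% of all genes). This was Clk1 at -0.26 ± 0.09 (limma adjusted p = 0.0337), a call that ended without any 1 array other than Wt1 siRNA replicate 1, Wt1 siRNA replicate 3, control siRNA replicate 1 and control siRNA replicate 3 (adjusted p up to 0.0920). Among 24 other RNA-binding regulators 4 were higher and 3 lower (29.2% called, against 37.3% of all genes), with a median of 0.05. The rises were led by Fubp1 at 0.40 ± 0.10 (limma adjusted p = 0.00599), Ewsr1 at 0.30 ± 0.08 (limma adjusted p = 0.00789) and Pcbp2 at 0.26 ± 0.08 (limma adjusted p = 0.0233). The falls were Rbmx, the X-linked hnRNP G, at -0.73 ± 0.15 (limma adjusted p = 0.00223), Tia1, which promotes weak 5′ splice sites, at -0.39 ± 0.11 (limma adjusted p = 0.0175), and Pspc1, a paraspeckle protein, at -0.38 ± 0.10 (limma adjusted p = 0.0106). The Tia1 call ended without control siRNA replicate 4 (adjusted p = 0.0566) and the Pcbp2 call without any 1 array other than Wt1 siRNA replicate 3, Wt1 siRNA replicate 4, control siRNA replicate 2 and control siRNA replicate 3 (adjusted p up to 0.0716). Wtap, named for its association with WT1 and part of the RNA methylation complex, had -0.31 ± 0.18 (limma adjusted p = 0.198), and Rbm4b, a relative of the WT1 partner Rbm4, had 0.27 ± 0.14 (limma adjusted p = 0.140). Averaging all probe sets of a gene ended the calls of Xab2, Snw1, Acin1, Pnn, Srrm2, Scaf1, Scaf8, Scaf11, Pcbp2 and Pspc1 (adjusted p from 0.0554 to 0.611). Median centring ended those of Snrpc, Txnl4a, Snw1, Ddx39b, Ddx46, Rnps1, Acin1, Pnn, Srrm2, Clk1, Pcbp2, Pspc1 and Tia1 (adjusted p from 0.05004 to 0.485).

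**Figure D4:**
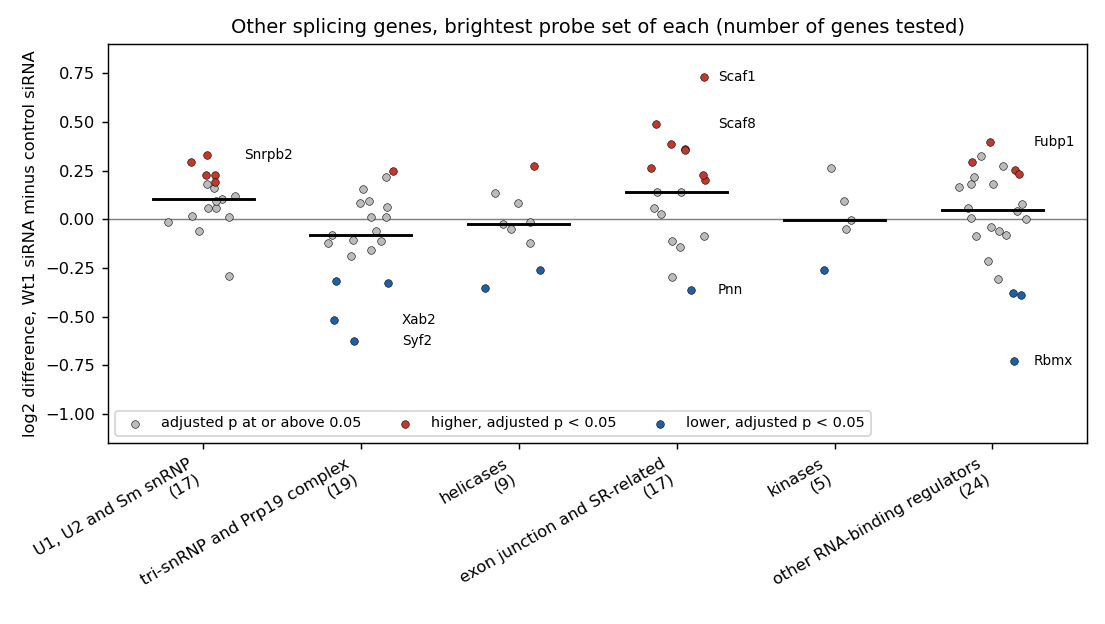
Log2 difference (Wt1 siRNA minus control siRNA, y axis) of the brightest probe set of each tested splicing gene outside the member families, by list (x axis, number tested in brackets), with each list's median as a bar. Red genes were higher and blue genes lower at an adjusted p under 0.05. Syf2, Xab2 and Rbmx lie lowest, at -0.63, -0.52 and -0.73, and Scaf1 highest, at 0.73.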

How the data were processed

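Total RNA of 8 LB-22 samples was hybridised to Affymetrix Mouse 430_2 arrays, 1 array each. Each probe set has 1 deposited intensity per array, linear and summarised with MAS5 by the authors, per the submitters' processing notes (version not given in the sources used here). All arrays have the same trimmed mean (1500), which shows a common scaling. No 2 arrays shared more than 42 identical values. Probe sets were named from the platform annotation, with current symbols taken by Entrez ID. Besides 64 array controls there were 45037, and 34945 had 1 symbol, 932 several and 9160 none.

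The log2 signal, with nothing added, was fitted with limma 3.58.1 in R 4.3.3 (lmFit, eBayes with intensity trend) on all 8 arrays and adjusted by Benjamini-Hochberg over all features tested. Tested were the brighter part (a share of 0.5) of probe sets by mean log2 signal over all arrays (lowest mean signal 291), and of genes by their brightest probe set (9096 genes); for pairs, both probe sets had to be tested. The number of arrays limits the precision: a tested probe set varied within a group by a median SD of 0.19 (log2). The scripts were tested on simulated data in which 200 of 22518 probe sets were changed. Of changes of 0.5 on the log2 scale 18% were recovered, and of changes of 1, 75%. In the real data 5194 probe sets were called, so these shares may not carry over. A probe set without a call is not shown to be unchanged. Exact permutation of 4 against 4 arrays can reach no p under 0.0286, the value for Wt1 (two-sided).

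Every member gene could be named. Signals by array are given for Wt1, for the 3 largest rises and falls in each family among called probe sets and for the 6 largest called pairs. Up to 3 rises and falls are given with their differences in each list of other genes, and some others are named for their stability. The members and the lists were chosen with earlier results of these data known. Residuals of same-numbered arrays of the 2 groups correlated at -0.06 to 0.08, and those of differently numbered arrays at -0.20 to 0.16. No pairing by number was thus seen, but such values cannot exclude that same-numbered arrays were handled together. The main fit took the arrays as unpaired. Alternatives were the replicate block, 2 other scalings, constants added before the logarithm, other brightness filters and eBayes settings, probe set choice, a threshold of 0.01 and each array left out.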

Additional observations from a re-analysis of the deposited data

Results flagged for a closer look

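A sample was looked at again where the highest or lowest of a group's 4 signals stood apart from the nearest of the others by a share of the group's range above Dixon's critical value. Among the called probe sets and Wt1, 94 groups were looked at and 4 stood out, and chance gives about 1 in 20. Hnrnpa2b1 on 1420365_a_at had 32829.1 on Wt1 siRNA replicate 4 and 28376.2 to 28900.7 on the other Wt1 siRNA arrays, a gap of 0.874 of the range. Hnrnpab on 1415914_at had 20949.3 on Wt1 siRNA replicate 2 and 25352.7 to 26122.1 on the others (0.865). Hnrnpdl on 1428225_s_at had 2426.5 on Wt1 siRNA replicate 2 and 1959.8 to 2030.2 on the others (0.835). Prpf4b on 1451909_a_at had 2272.0 on control siRNA replicate 1 and 1918.1 to 1936.5 on the other control siRNA arrays (0.944). Of these calls, Hnrnpab, Hnrnpa2b1, Hnrnpdl and Prpf4b each held without the array that stood apart.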

How the results depend on the processing

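The difference of Wt1 kept its call in every alternative that tested its probe set (-2.37 to -2.19 when each array was left out). Median centring gave 17 higher and 9 lower probe sets, 9 higher and 4 lower genes, 10 higher and 3 lower other splicing genes, and a member median of 0.11. A threshold of 0.01 gave 9 and 12 probe sets, 6 and 5 genes, 4 and 6 other genes and 1 pair. With no brightness filter 16 probe sets and 11 other genes were higher and 5 pairs passed; without the intensity trend these were 16, 12 and 4. Without probe sets of several transcripts 14 were higher and 13 lower, the median was -0.068 and 2 pairs passed. Averaging a gene's probe sets gave 7 higher genes, and 11 higher and 7 lower other genes, and turned U2surp (-0.087, limma adjusted p = 0.420), Ddx46 (0.16, 0.324), Srrm2 (-0.17, 0.138) and Sfpq (-0.14, 0.199). Quantile normalization left 5 pairs. The cause of these changes was not tested. The number of features tested also changed where the filter or the probe sets changed. With the replicate block, though no pairing by number was seen, 18 probe sets were higher and 19 lower, 14 genes higher and 10 lower, 18 other genes higher and 13 lower, and 4 pairs passed. With each array left out in turn, higher probe sets numbered 13 to 31 and lower 14 to 25, higher genes 9 to 16 and lower 6 to 9, higher other genes 9 to 20 and lower 9 to 12, pairs 3 to 16, and the member median was -0.02 to 0.04. Of the 46 called probe sets 25 held under every left-out array. Probe sets near background were not tested, which limits Rbfox1, Celf6, Srsf12 and Esrp1.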
